A study of Homo sapiens with 4 samples.

Results

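The glycolysis genes described here are 10 genes that carry glucose into the cell and break it down to lactate, namely SLC2A1, HK1, HK2, GPI, PFKP, ALDOA, GAPDH, PGK1, ENO1 and LDHA. Each was taken by its symbol from the 62778 entries of the deposited gene table that name a gene, and where several entries named a symbol the entry with the highest mean count was used. All 10 were found, and all 10 were among the 26167 entries that passed the filter on low counts and were tested. The rule names the genes by symbol and uses the mean count only to pick between entries of the same symbol. It was set with earlier results of these data known. Glycolysis splits a molecule of glucose into pyruvate in the cytosol and yields ATP without oxygen. Leukemia cells in culture typically run it at a high rate and release much of the pyruvate as lactate. Several of its genes are known targets of the hypoxia-inducible factor HIF1 and of MYC, and GAPDH and PGK1 are often used as reference genes in expression work.

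The samples were K562-U2AF1_S34F cells, an established human erythroleukemia line that overexpresses the S34F mutant of the splicing factor U2AF1. All 4 RNA-seq libraries were made after removal of ribosomal RNA. Of these, 2 came from cells kept in DMSO, the solvent, and 2 from cells exposed for 48 h to 30 μM SF1-8. SF1-8 is a small molecule that inhibited contact of the UHM domain of U2AF1 with U2AF2 in the study's binding assay. Whether that contact was blocked in these cells was not tested here. Every library carries the S34F construct and none comes from cells without it, so the comparison is between SF1-8 and DMSO in mutant cells only. The labels give no culture for a library, and p-values then measure only the spread between these libraries.

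Total counts ranged from 45522905 in DMSO 1 to 67554610 in SF1-8 1. U2AF1 itself, mutant and wild type not told apart, had an FPKM between 11.4 and 12.0. FPKM is the read signal divided by the length of the entry and the depth of the library. The erythroid identity of K562 was present in every library, with GATA1 between 75.9 and 79.1 FPKM and KLF1 between 23.9 and 25.9 FPKM. The monocyte and granulocyte genes MPO and ELANE had no count in any library, while LYZ had 4.08 to 5.80 FPKM. Among T and B cell genes, CD3D had 3.82 to 5.14 FPKM and MS4A1 at most 0.00718 FPKM. No gene of these marker lists passed an adjusted p of 0.05. Of 7 fibroblast or stromal markers, 6 were lower in both SF1-8 libraries than in both DMSO libraries, and the summed FPKM of the list was 9.93 and 4.72 with DMSO against 2.46 and 0.594 with SF1-8. Of all genes tested, 20.0% were lower without overlap in this way. The median log2 fold change of the 7 was -2.73. An unadjusted p under 0.05 was reached by 5 of the 7 and by 4.33% of all genes. None of the 7 was at 0 in every library, and the part of these transcripts in the values below was not tested.

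The 10 genes differed widely in level, from 11.2 FPKM for PFKP to 533 FPKM for GAPDH as means over the 4 libraries. GAPDH, which oxidises glyceraldehyde 3-phosphate, had an FPKM of 538 in DMSO 1, 534 in DMSO 2, then 525 in SF1-8 1 and 537 in SF1-8 2. ENO1, the enolase that forms phosphoenolpyruvate, followed with 356, 364, 360 and 369.5 FPKM in the same order of libraries. Both genes kept their level within a few percent in every library, and their ranges did not meet. ALDOA, the aldolase that cleaves fructose bisphosphate, came next at a mean of 110 FPKM, followed by LDHA at 75.9, HK1 at 69.9 and GPI at 26.1. HK2 at 19.3, PGK1 at 17.9, SLC2A1 at 11.3 and PFKP at 11.2 FPKM made up the lower end. Neighbours in this order were separate in both groups except in a pair of places. LDHA and HK1 overlapped with SF1-8 and not with DMSO. SLC2A1 lay below PFKP in both DMSO libraries and above it in both SF1-8 libraries. The entries lie on the plus strand of hg38 except those of SLC2A1 (chromosome 1, 42925353 to 42958868) and ENO1 (chromosome 1, 8861000 to 8878690). On chromosome 10 are HK1 (69269984 to 69401884) and PFKP (3066333 to 3164249), and on chromosome 2 is HK2 (74834127 to 74893359). GPI is on chromosome 19 (34359480 to 34426150), ALDOA on chromosome 16 (30053090 to 30070457) and GAPDH on chromosome 12 (6534512 to 6538371). The entry of PGK1 is on chromosome X (77910656 to 78123338) and that of LDHA on chromosome 11 (18394560 to 18408425). Together the 10 entries held between 0.693% and 0.715% of the counts of a library.

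**Figure D1:**
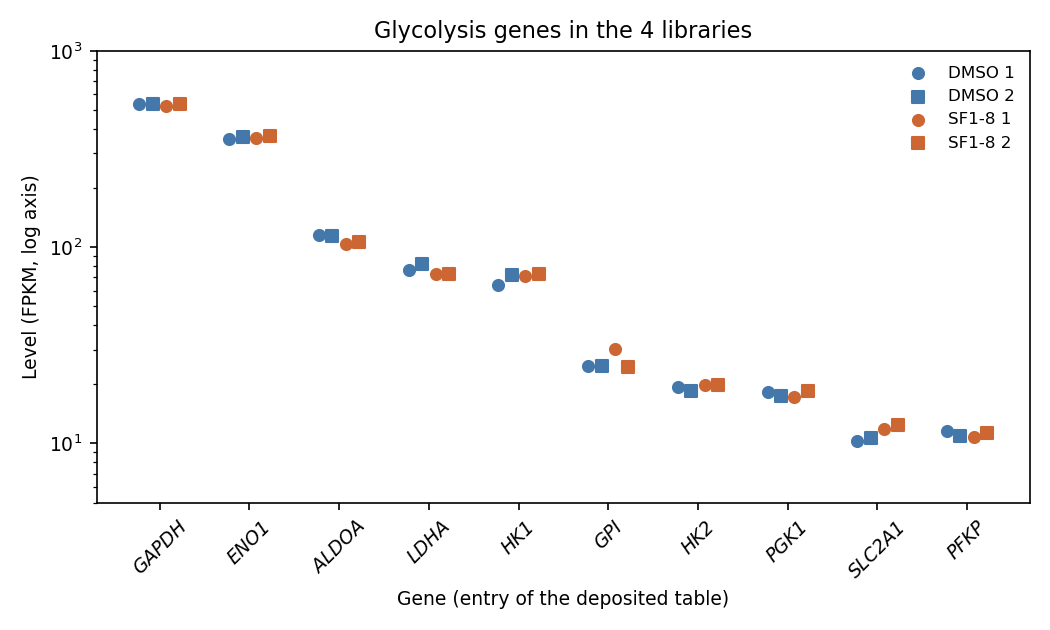
Level of each glycolysis gene in FPKM on a log axis, with 1 point per library, circles for replicate 1 and squares for replicate 2, and blue for DMSO and orange for SF1-8. The 4 points of a gene lie close together beside the distance between most genes, and GPI in SF1-8 1, at 30.2 FPKM, stands above its other 3 libraries.

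The order by FPKM depends on the length by which each entry was divided. That length was recovered from the ratio of count to FPKM, scaled on 704 entries with a single GENCODE transcript. For most members it was close to the length covered by the exons of all transcripts in the entry, with overlaps counted once. It was longer for SLC2A1, at 6615 against 4724 nucleotides, and for PFKP, at 9922 against 9206, and shorter for GAPDH, at 2394 against 2981. The PGK1 entry came to 18395 nucleotides, because it also holds ATP7A, a copper transporter, and only 29.8% of its annotated exon length belongs to PGK1. The entry of GPI came to 12092 nucleotides and includes PDCD2L. That of PFKP, at 9922 nucleotides, includes PITRM1-AS1, and that of ALDOA, at 5538 nucleotides, includes AC093512. Reads of these neighbours count toward the totals of the 4 entries. The other 6 entries name 1 gene each. When the same counts were divided by the longest coding transcript of the member in GENCODE version 29, ENO1 moved above GAPDH, with a mean of 1060 against 681 on the rescaled FPKM scale. PGK1 then stood at 67.3, close to GPI at 72.6, and PFKP at 40.0 stood above HK2 at 19.8 and SLC2A1 at 20.3. These values take every count of a shared entry as the member's own.

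The promoter windows of RefSeq (GRCh38.p14, from 250 bases before to 50 after a gene start) matched all 10 genes, with 23 windows because HK1, HK2, PFKP, ALDOA and LDHA have several starts. The core of the hypoxia response element was searched as ACGTG or GCGTG and the E-box bound by MYC as CACGTG, each on both strands. An E-box holds the core on either strand and so counts as 2 cores. The core was found in 16 of the 23 windows, against 48.4% of all 35116 windows of this length. Each of the 10 genes had at least 1 window with it. The share of all genes with at least 1 such window was not counted, and a gene with several starts has more windows that can hold it. The E-box was found in 4 of the 23, in HK2, ALDOA, GAPDH and LDHA, against 7.26% of all windows. The 250 bases before the start are shown for the gene with the largest difference between the groups and for a pair of members with several cores, with core and E-box letters in capitals. SLC2A1 is on the minus strand of chr1:42958869-42959118, PGK1 on the plus strand of chrX:78103998-78104247, and LDHA on the plus strand of chr11:18394313-18394562.
SLC2A1: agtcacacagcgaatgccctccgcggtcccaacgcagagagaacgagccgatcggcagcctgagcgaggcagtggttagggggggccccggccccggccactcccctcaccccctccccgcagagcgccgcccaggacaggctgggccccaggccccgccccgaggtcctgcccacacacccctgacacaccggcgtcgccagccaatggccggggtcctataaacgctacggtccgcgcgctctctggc
PGK1: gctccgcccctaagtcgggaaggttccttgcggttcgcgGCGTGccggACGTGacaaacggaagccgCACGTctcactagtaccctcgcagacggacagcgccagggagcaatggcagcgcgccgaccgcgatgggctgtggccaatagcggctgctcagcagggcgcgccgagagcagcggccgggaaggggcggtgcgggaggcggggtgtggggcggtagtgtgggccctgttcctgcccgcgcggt
LDHA: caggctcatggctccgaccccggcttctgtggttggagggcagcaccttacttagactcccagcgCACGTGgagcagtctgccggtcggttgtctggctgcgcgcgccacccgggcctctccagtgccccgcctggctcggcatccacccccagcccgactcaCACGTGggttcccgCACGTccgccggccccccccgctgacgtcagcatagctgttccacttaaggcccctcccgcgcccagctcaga
SLC2A1 had no core in these bases and 1 in the 50 after its start. PGK1 had 3 cores and no E-box here. LDHA had 5 cores, 4 of them within its 2 E-boxes. A match of letters is a description of the sequence and says nothing of whether a factor is bound.

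Exposure to SF1-8 was compared with DMSO to ask whether the glycolysis genes moved with the compound. At an adjusted p of 0.05, none of the 10 differed in edgeR after Benjamini-Hochberg adjustment, where 0.0420% of all genes tested did (0.0191% higher and 0.0229% lower with SF1-8), and their adjusted p-values lay between 0.970 and 0.999. With DESeq2 the number was also 0, beside 0.627% of all genes past the adjusted threshold. At an unadjusted p under 0.05 in DESeq2 it was 0 of the 10, beside 1159 of the 26167 genes tested. At an unadjusted p under 0.05, 1 of the 10 differed, against 4.33% of all genes. The log2 fold changes ran from -0.11 to 0.23, with 8 higher and 2 lower and a median of 0.038. Of all genes tested, 12657 were higher and 13510 lower, with a median of -0.011. The 95% intervals of all 10 lay between 0.805-fold and 1.38-fold, so changes beyond these bounds in either direction were outside every interval in this fit. The interval held no change for 9 of the 10. No exact permutation of 2 against 2 libraries can pass a threshold of 0.05, so single genes rest on the fit across all genes. In bulk RNA a change in cells and a change in RNA per cell cannot be told apart.

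The counts behind the 10 genes ran from 3926 to 157030 per library, and the standard errors of the log2 fold changes from 0.0558 to 0.118. For comparison, 2383 genes had an average abundance at or above that of SLC2A1, the member with the fewest counts. In these genes the median size of the log2 fold change was 0.0674 and the median standard error 0.0789, and 91.5% differed by less than 0.25. Their median log2 fold change with its sign was 0.043, so the median of 0.038 of the 10 members was not above that of genes this abundant. All 10 members also differed by less than 0.25, with a median size of 0.099.

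**Figure D2:**
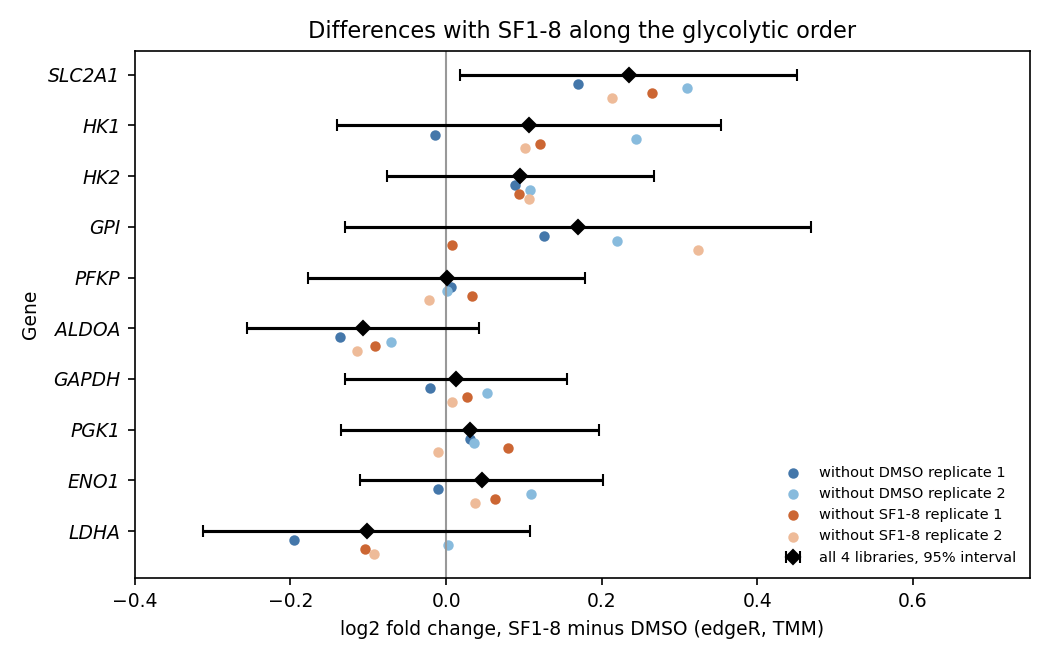
Difference of each glycolysis gene between SF1-8 and DMSO, in the order of the pathway, as a log2 fold change from the edgeR fit on all 4 libraries (diamonds, bars for the 95% interval), with the 4 values obtained by leaving out a library in turn (coloured points). Only the interval of SLC2A1, from 0.018 to 0.45, lies clear of 0, and HK1, GPI and LDHA move most when a library is left out.

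At the entry of the pathway, SLC2A1 encodes the glucose transporter GLUT1. Its FPKM was 10.3 in DMSO 1, 10.7 in DMSO 2, then 11.8 in SF1-8 1 and 12.4 in SF1-8 2. Both SF1-8 libraries thus lay above both DMSO libraries, an order that 14.2% of all genes tested showed in the same direction. On the normalized CPM scale it was 17.3% of all genes and 32.0% of the 2383 genes of at least its abundance. The log2 fold change was 0.23 (standard error, SE, 0.0849), the largest of the 10 genes, with an unadjusted p of 0.038, and it did not pass in edgeR after Benjamini-Hochberg adjustment (adjusted p = 0.970). It lay between 0.17 and 0.31 with each library left out in turn, and was 0.0735 with FPKM rescaled to TPM. Among the 2383 genes of at least its abundance, 131 (5.50%) rose by as much or more. SLC2A3, the transporter GLUT3, shares its entry with SLC2A14 and had 8.33 and 8.74 FPKM with DMSO and 9.06 and 9.13 FPKM with SF1-8. Its log2 fold change was 0.12 (SE 0.0820), and its own order was also without overlap. Of the summed FPKM of SLC2A1 and SLC2A3, SLC2A1 took 55.1% ± 0.16 (SD, n = 2) with DMSO, against 57.1% ± 0.65 (SD, n = 2) with SF1-8. The SLC2A3 entry held more counts than that of SLC2A1 in every library, with 5615 against 3926 in DMSO 1. Such shares of FPKM depend on the length by which each entry was divided and do not show which paralog predominates.

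The hexokinases trap glucose in the cell as glucose 6-phosphate. HK1, the broadly expressed form, had 63.9 FPKM in DMSO 1, 72.0 in DMSO 2, then 71.1 in SF1-8 1 and 72.7 in SF1-8 2. DMSO 1, the library with the smallest total count, was the low one. The log2 fold change of 0.11 (SE 0.0970) became -0.014 without that library and 0.24 without DMSO 2. HK2, the inducible form, had 19.3 and 18.4 FPKM with DMSO and 19.8 in each SF1-8 library. Both SF1-8 values were the higher ones, as for 14.2% of all genes tested. On the normalized CPM scale the order was the same, as for 32.0% of the 2383 genes at least as abundant as SLC2A1. The log2 fold change of HK2 was 0.096 (SE 0.0674), with a 95% interval from -0.076 to 0.27. A pseudogene of HK2 has an entry of its own, which held between 1.14% and 2.23% of the counts of HK2. HK1 made up 78.2% ± 2.0 (SD, n = 2) of the summed FPKM of the pair with DMSO and 78.4% ± 0.26 (SD, n = 2) with SF1-8. HK3 and HKDC1, which also encode hexokinases, were below the filter on low counts.

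GPI turns glucose 6-phosphate into fructose 6-phosphate. Its FPKM was 24.7 in DMSO 1, 24.85 in DMSO 2, then 30.2 in SF1-8 1 and 24.5 in SF1-8 2. The groups overlapped, and only SF1-8 1 was high. The log2 fold change of 0.17 (SE 0.118) became 0.0071 without that library and 0.32 without SF1-8 2. A second, short entry named GPI lies on the opposite strand inside the gene (hg38, chromosome 19 from 34372089 to 34372966) with at most 0.712% of the main entry's counts. It had 2.42 and 2.18 FPKM with DMSO and 1.36 and 1.32 FPKM with SF1-8, a log2 fold change of -0.75 (SE 0.245) that did not pass in edgeR after Benjamini-Hochberg adjustment (adjusted p = 0.970). Its identifier is one of the merged assembly, and whether the counting used strand is not given in the sources used here. Further entries also named HK1, with log2 fold changes of -0.19, -0.28 and -0.30, ALDOA, with -0.17, and ENO1, with 0.022. Of all these further entries, that of GPI had the lowest unadjusted p in edgeR (0.027).

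PFKP, the platelet form of phosphofructokinase, which commits sugar to glycolysis, had 11.6 and 10.9 FPKM with DMSO and 10.8 and 11.3 FPKM with SF1-8. The ranges overlapped almost fully, and the log2 fold change of 0.0010 (SE 0.0698) was far smaller than its standard error. PFKL, the liver form, was expressed at nearly the same level, with 10.4 and 11.1 FPKM against 11.3 and 9.99 FPKM, and PFKM, the muscle form, had 5.58 and 5.00 FPKM against 5.42 and 5.60 FPKM. PFKP made up 41.2% ± 1.3 (SD, n = 2) of the 3 forms with DMSO and 40.6% ± 2.0 (SD, n = 2) with SF1-8. ALDOA had 116 and 114 FPKM with DMSO and 103 and 106 FPKM with SF1-8. Both SF1-8 libraries were lower, as for 20.0% of all genes tested, with a log2 fold change of -0.11 (SE 0.0586) and a 95% interval from -0.26 to 0.042. ALDOC, the second aldolase, had a log2 fold change of 0.039 (SE 0.0886), and the share of ALDOA in the summed FPKM was 89.7% ± 0.54 (SD, n = 2) with DMSO, against 88.8% ± 0.067 (SD, n = 2) with SF1-8.

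The later steps of the pathway are those where ATP is made. GAPDH, whose values are given above, had a log2 fold change of 0.013 (SE 0.0558), and the 95% interval ran from -0.13 to 0.15. PGK1, the kinase that makes the first ATP, had 18.4 and 17.4 FPKM with DMSO and 17.3 and 18.5 FPKM with SF1-8, with a log2 fold change of 0.031 (SE 0.0651). ENO1 had a log2 fold change of 0.046 (SE 0.0613). For these genes the difference was smaller than its standard error, and the sign of each turned in limma on FPKM with quantile normalization, which gave -0.25 for GAPDH, -0.015 for PGK1 and -0.14 for ENO1. For GAPDH the table names 62 pseudogenes, of which 61 have entries of their own that together held between 0.704% and 0.833% of the counts of GAPDH. How reads that match several copies were placed is not given in the sources used here.

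LDHA, the subunit of lactate dehydrogenase that favours the making of lactate, had 76.1 FPKM in DMSO 1, 82.4 in DMSO 2, then 72.5 in SF1-8 1 and 72.6 in SF1-8 2. On the FPKM scale both SF1-8 libraries were lower, as for 20.0% of all genes tested. On the normalized CPM scale (counts scaled to library size) used by the fit the groups overlapped, with 559 and 638 against 560 and 555. The log2 fold change was -0.10 (SE 0.0825), which was 0.0031 without DMSO 2 and -0.20 without DMSO 1. LDHB, the other subunit, shares its entry with GYS2 and had a log2 fold change of 0.031 (SE 0.0604). LDHA made up 60.7% ± 2.2 (SD, n = 2) of the summed FPKM of both with DMSO and 58.6% ± 0.84 (SD, n = 2) with SF1-8, with overlapping values. This share also rests on the lengths of the entries, and any reads of GYS2 count toward LDHB.

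**Figure D3:**
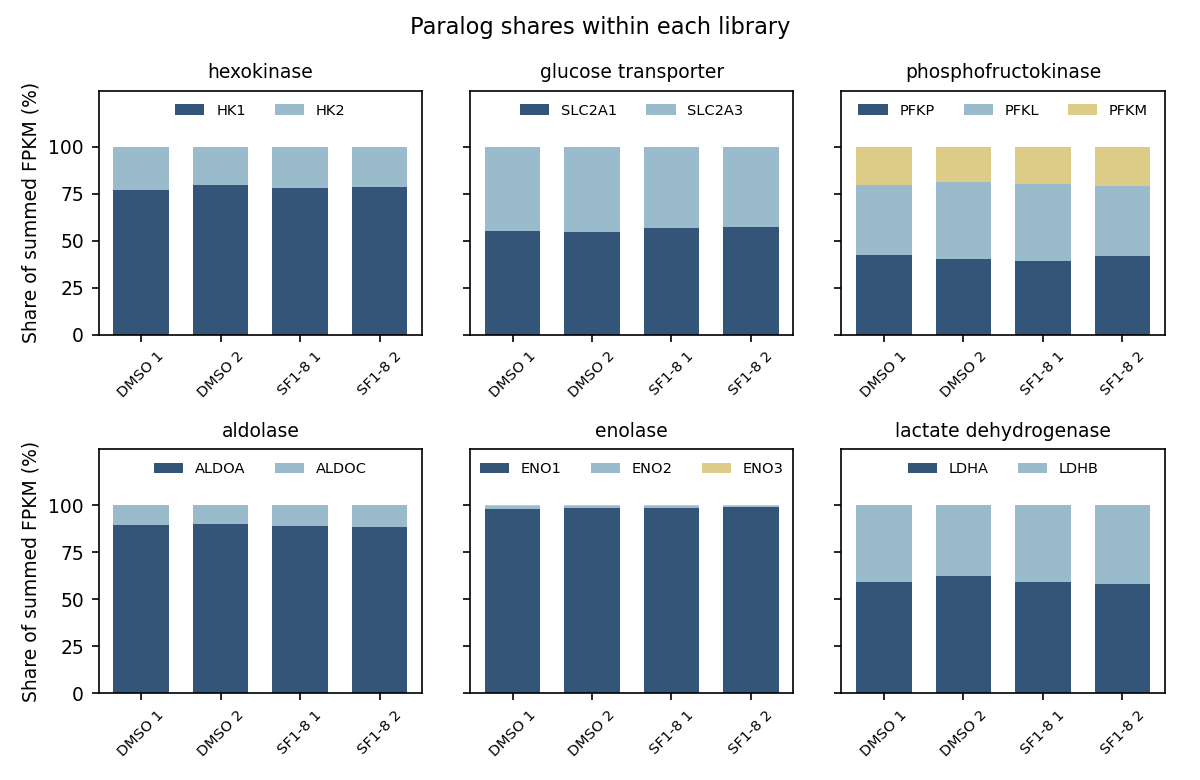
Share of each paralog in the summed FPKM of its family, in percent, with 1 bar per library. The shares depend on the length by which each entry was divided. The composition of every family is close in the 4 libraries, with HK1 between 76.8% and 79.6%, SLC2A1 between 54.9% and 57.5%, and LDHA between 58.0% and 62.3%.

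None of the remaining genes of glycolysis passed the test. In a list of 28 paralogs and other steps, 18 entries were tested and 0 passed in edgeR after Benjamini-Hochberg adjustment, with 0 under an unadjusted p of 0.05 and a median log2 fold change of 0.022. TPI1, the isomerase that follows aldolase, had 109 and 95.9 FPKM with DMSO and 98.7 and 102 FPKM with SF1-8. PGAM1, the mutase between PGK1 and enolase, had 80.1 and 89.2 FPKM against 80.5 and 92.5 FPKM. For both the groups overlapped. PKM, the pyruvate kinase of most dividing cells, had 39.8 and 34.6 FPKM with DMSO and 36.7 and 29.4 FPKM with SF1-8, a log2 fold change of -0.14 (SE 0.125), while PKLR, the red cell form, had -0.092 (SE 0.104). The PKM value is a total over its splice forms, which a gene table does not separate. ENO2, at 5.05 and 4.89 FPKM with DMSO, had 4.73 FPKM in SF1-8 1 and 2.51 in SF1-8 2, a log2 fold change of -0.43 (SE 0.305). Its values put ENO1 at 98.4% ± 0.076 (SD, n = 2) of the enolases with DMSO and at 98.8% ± 0.49 (SD, n = 2) with SF1-8. The remaining tested members were SLC2A4, SLC2A6, SLC2A8, ADPGK, PFKM, PGAM4, BPGM, ENO3 and LDHAL6A, of which SLC2A6, at no more than 0.0773 FPKM, had the most negative log2 fold change of the list at -0.65 (SE 0.833).

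Neighbouring pathways were compared through 6 further lists. Enzymes that set fructose 2,6-bisphosphate, the activator of phosphofructokinase, gave 4 tested entries whose log2 fold changes had a median of 0.063. PFKFB3 had the most positive value of these at 0.22 (SE 0.176) and PFKFB4, in an entry with UCN2, the only negative one at -0.083 (SE 0.130). The entry of TIGAR also names CCND2 and AC008012, and its value was 0.088 (SE 0.0788). In the list of pyruvate fate and lactate export, 18 entries were tested, with a median of -0.0050, with an unadjusted p under 0.05 for 2. PDK1, a kinase that shuts off pyruvate dehydrogenase, had 1.43 and 1.48 FPKM with DMSO and 1.18 and 1.03 FPKM with SF1-8, a log2 fold change of -0.37 (SE 0.130). SLC16A3, the lactate exporter MCT4, whose entry also names MIR6787, had 0.271 and 0.389 FPKM with DMSO and 0.168 and 0.210 FPKM with SF1-8, a log2 fold change of -0.79 (SE 0.300). SLC16A1, the transporter MCT1, was far more abundant, from 48.4 to 51.9 FPKM, with a log2 fold change of 0.083 (SE 0.0706). Neither PDK1 nor SLC16A3 passed in edgeR after Benjamini-Hochberg adjustment over all genes (adjusted p = 0.970 for each).

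The pentose phosphate pathway, which branches off at glucose 6-phosphate and makes NADPH and ribose, had 11 tested entries and a median of 0.078 on the log2 scale. The widest values there were 0.65 (SE 0.472) for RPE and -0.26 (SE 0.293) for PGLS. In both genes libraries of one group stood far apart. RPE had 2.59 FPKM in DMSO 2 against 6.99 in DMSO 1, and PGLS 5.23 FPKM in SF1-8 2 against 9.65 in SF1-8 1. Genes of gluconeogenesis and glycogen gave 18 tested entries, counting the entry that GYS2 shares with LDHB, with a median of 0.045. Their widest values belonged to PYGM at 0.67 (SE 0.593) and PCK1 at -0.32 (SE 1.77), both barely expressed. In these 2 lists no gene had an unadjusted p under 0.05.

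Among 20 tested genes of the hypoxia-inducible factor pathway the median log2 fold change was 0.060. HIF1A, which encodes the oxygen-regulated subunit, shares its entry with SNAPC1 and AL137129, and the entry had 5.87 and 5.67 FPKM with DMSO and 5.71 and 5.62 FPKM with SF1-8. CA9, a gene that is strongly induced in hypoxia, had no count in any library. ERO1A, an oxidase of protein folding that hypoxia also induces, was the only gene of this list with an unadjusted p under 0.05, at 11.0 and 10.1 FPKM with DMSO and 11.8 and 12.1 FPKM with SF1-8, or 0.20 (SE 0.0722) as a log2 fold change. Among 11 tested regulators of glycolytic genes the median was 0.025. MYC had the most negative value at -0.99 (SE 0.623), with 5.65 FPKM in DMSO 1, 19.8 in DMSO 2, then 8.00 in SF1-8 1 and 4.78 in SF1-8 2, so that DMSO 2 alone stood apart. MAX, the partner of MYC, had the most positive value at 0.20 (SE 0.128). Over all these lists, 99 entries were tested beside the 10 genes, 62 with a positive and 37 with a negative log2 fold change and a median of 0.039. None passed in edgeR after Benjamini-Hochberg adjustment, and 3 had an unadjusted p under 0.05. The 45 tested entries that the table itself annotates with the KEGG pathway of glycolysis and gluconeogenesis had a median of 0.031, with 0 calls by the same test and 0 at an unadjusted p under 0.05. That set was taken by annotation and can share entries with the 10 genes and the lists.

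**Figure D4:**
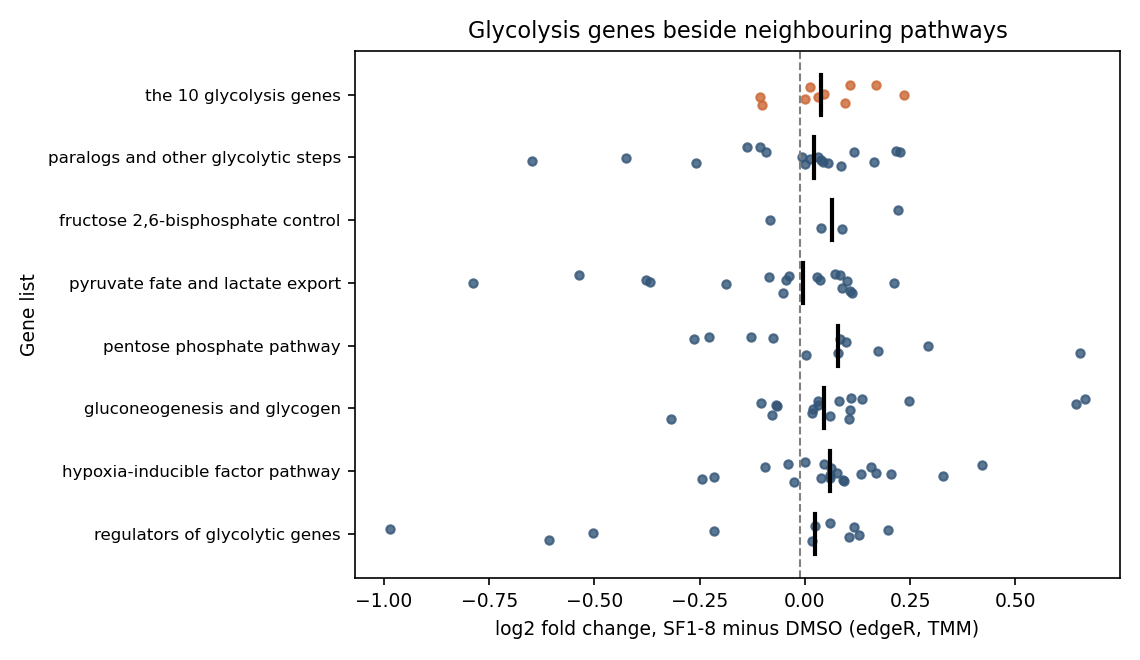
Log2 fold change of every tested gene between SF1-8 and DMSO, for the 10 glycolysis genes (orange) and 7 lists of related genes (blue), with a black bar at each median and a dashed line at the median of all genes tested, -0.011. The medians lie between -0.0050 and 0.078, and single genes spread widely in each list, PYGM, RPE and MYC among them.

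The number of the 10 genes with a positive value depended on the measure, its scaling and the libraries used. It was 5 without DMSO 1, 9 without DMSO 2, 8 without SF1-8 1 and 6 without SF1-8 2. The SD between replicates of the members' median log2 CPM, pooled over groups, was 0.0696. With counts scaled by TMM, size factors or DESeq2, 8 of the 10 were positive. With limma on log2(FPKM + 1) there were 6, and with quantile normalization 4, where GAPDH stood at -0.25 and ENO1 at -0.14 while SLC2A1 stayed at 0.18. With the deposited FPKM rescaled to TPM, the same sum in every library, the median of all genes moved to -0.14 and that of the 10 genes to -0.12, and relative to all genes the 10 lay at 0.013. SLC2A1, at 0.0735, and GPI, at 0.00030, were the only members with a positive value in that setting, and ALDOA and LDHA had the lowest values, -0.27 and -0.26.

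**Figure D5:**
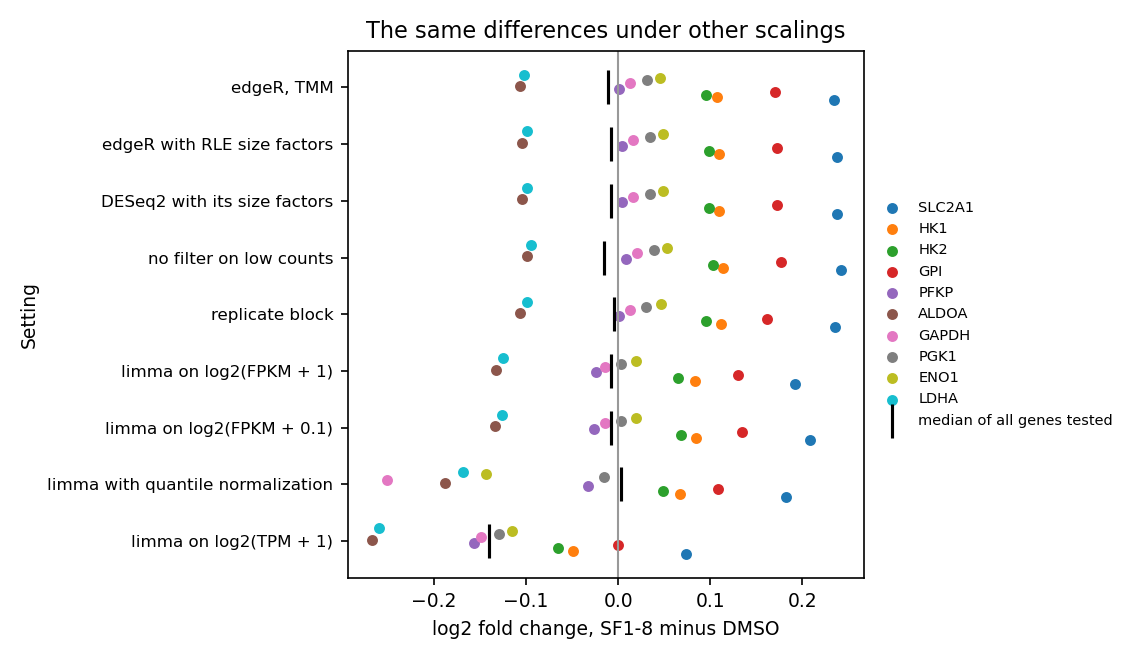
Log2 fold change of each glycolysis gene (coloured points) and median of all genes tested (black bar) under 9 settings of normalization and test. SLC2A1 is the rightmost point in every row, ALDOA and LDHA lie left of 0 in every row, and the TPM setting moves the median of all genes and the 10 genes to the left together.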

How the data were processed

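Total RNA of K562-U2AF1_S34F cells was depleted of ribosomal RNA and sequenced in 4 libraries, 2 per group. For each entry the authors deposited an FPKM value, normalized for length and depth with 0.0001 in place of 0, and an estimated count, a whole number that is not normalized and of which 4 is the commonest value above 0. The submitters' processing notes name cutadapt, FastQC, Bowtie2, HISAT2, StringTie and hg38 without versions. The entries combine a merged assembly with Ensembl genes. Counts of the 62778 named entries were used, and the 2095 unnamed entries, with 0.372% of the counts, were left out. Because a count is not a single read, no counting interval is given.

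The study's methods name no test. Counts were normalized by TMM, filtered by filterByExpr and tested by the quasi-likelihood method of edgeR 4.0.16 in R 4.3.3, with Benjamini-Hochberg adjustment over 26167 entries and standard errors derived from the F statistic. Alternatives used DESeq2 1.42.0, limma 3.58.1 on FPKM, a replicate block and leaving out each library. The steps were tested on simulated counts. The changes planted there were all larger than any difference of the members, so the simulation does not bear on changes of that size. The members, the lists and the tests were chosen with earlier results of these data known. The text names every member and tested paralog and, in each other list, genes with an unadjusted p under 0.05 or else the largest rise and fall. SLC16A1, HIF1A and CA9 were named outside this rule after their values had been seen. The symbol G6PC1 was not found under that name, and the older G6PC was used. Transcript values were not analysed here, and 1 gene counted in the lists is not reported here.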

Additional observations from a re-analysis of the deposited data

How the results depend on the processing

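Under all 12 alternatives, 0 of the 10 glycolysis genes passed an adjusted p of 0.05, and the lowest adjusted p of any of them was 0.620, in edgeR after Benjamini-Hochberg adjustment without DMSO 2. The number of all genes past the threshold was 11, and became 164 with DESeq2, 31 with no filter on low counts, 1 with limma on log2(FPKM + 1), 0 with limma on log2(FPKM + 0.1) and 0 with quantile normalization, where 746 and 807 had an unadjusted p under 0.05. Without DMSO 1 it was 0 (1341 at an unadjusted p under 0.05), 21 without DMSO 2, 30 without SF1-8 1 and 28 without SF1-8 2. The replicate number as a block gave 0 (971 at an unadjusted p under 0.05). Same-numbered libraries share only a number, with a correlation of their deviations of -0.0155 over genes, and the block changed no call or sign of the 10 genes.

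The median of the 10 genes was 0.0385, moved to -0.122 with FPKM rescaled to TPM, and lay between -0.00205 and 0.0804 with a library left out. SLC2A1, GPI, ALDOA and, except without DMSO 2, LDHA kept their sign in every setting, though under TPM SLC2A1 was 0.0735 and GPI 0.00030. With limma on log2(FPKM + 1), log2(FPKM + 0.1), quantile normalization and TPM, PFKP turned to -0.0242, -0.0261, -0.0331 and -0.157 and GAPDH to -0.0144, -0.0145, -0.251 and -0.149. Quantile normalization and TPM turned PGK1 to -0.0149 and -0.130 and ENO1 to -0.144 and -0.115, and TPM turned HK1 to -0.0494 and HK2 to -0.0653. With a library left out, the range was -0.0142 to 0.244 for HK1, -0.0225 to 0.0327 for PFKP, -0.0212 to 0.0525 for GAPDH, -0.0100 to 0.0797 for PGK1, -0.0102 to 0.109 for ENO1 and -0.196 to 0.00305 for LDHA. Apart from the common shift under TPM, the cause of these changes was not tested.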
